A study of Mus musculus with 6 samples.

Results

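The transcripts described here encode the fatty acid binding proteins Fabp3, Fabp4 and Fabp5 and the acyl-CoA binding protein Dbi, measured in mouse inguinal fat cells differentiated in culture. They are 4 of 18193 genes that the platform annotation pairs with at least 1 probe set of their own. Taking every probe set annotated with 1 of the 4 symbols gave 12 of the 45101 on the array, namely 2 for Fabp3, 4 for Fabp4, 2 for Fabp5 and 4 for Dbi. Affymetrix expression arrays were run on 3 control samples and on 3 samples treated for 4 days with rosiglitazone at 1 uM, a thiazolidinedione drug that activates the nuclear receptor PPARγ. The labels call the treated state beiging. No strain, age or number of mice is given, nor whether replicates are separate cultures. The p-values therefore rest on a spread between arrays that may be technical. The labels' protocol text gives the drug for all 6 samples, so the groups were taken from the treatment label and the title. Across the probe sets, dim ones included, the log2 values of 2 arrays correlated at 0.994 to 0.996 within a group and at 0.984 to 0.985 between groups, and no array stood apart from its group.

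Fatty acid binding proteins are small cytosolic barrels that hold a long-chain fatty acid and carry it between membranes, enzymes and, for some members, the nucleus, where the ligand can reach PPAR receptors. Fabp4, also called aP2, is the classical form of fat cells and is made by macrophages as well. Fabp5, the epidermal form, is found in skin, fat and macrophages. Fabp3 is the heart and muscle form and is also abundant in brown fat. Dbi, the acyl-CoA binding protein, is made in most cells and holds the CoA esters of fatty acids once a synthetase has activated them.

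The genes differed widely in the size of their change. The muscle and brown fat form Fabp3 rose 22.6-fold, Fabp5 rose by 12.05% and 23.9% on its 2 probe sets, and Dbi rose by 6.05% to 7.94% on its 4 probe sets. Fabp4, the main fat cell form, did not pass the test on its 2 brightest probe sets and rose by 10.01% and 15.6% on its 2 dimmer ones. In all, 9 of the 12 probe sets were called higher and 0 lower at an adjusted p under 0.05 (limma, Benjamini-Hochberg over 27022 probe sets tested), where 51.9% of all probe sets tested were called, 21.2% higher and 30.7% lower. That balance turned with the scaling of the arrays: 32.2% were called higher and 21.1% lower after median centring, and 27.4% higher and 24.9% lower after quantile normalization. The same 9 probe sets had groups that did not overlap, which held in the upward direction for 24.2% of all probe sets tested. At an unadjusted p under 0.05 the number called lower was likewise 0. The median log2 change of the 12 was 0.12, against −0.040 over all probe sets tested. Most of the 12 were bright. Over the tested probe sets with a mean over 8000 the median was 0.027, and 44.3% were called higher.

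Sequence upstream of the start site was taken from RefSeq (GRCm38.p6) for Fabp3, the gene that changed most. The window holds the 250 bases before the annotated start, 5′ to 3′ on the gene's strand. Capitals mark a match to any of 7 motifs searched on both strands: the nuclear receptor half-site AGGTCA, its direct repeat with 1 base between (DR1), the extended half-site TCAAGGTCA, the TATA forms TATAAA and TATTTAA, the CCAAT box and the GC box GGGCGG. The half-site lies within the direct repeat and the extended form, and TATTTAA was added after the Fabp3 sequence had been read.

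Fabp3, chr4:130308488-130308737, plus strand: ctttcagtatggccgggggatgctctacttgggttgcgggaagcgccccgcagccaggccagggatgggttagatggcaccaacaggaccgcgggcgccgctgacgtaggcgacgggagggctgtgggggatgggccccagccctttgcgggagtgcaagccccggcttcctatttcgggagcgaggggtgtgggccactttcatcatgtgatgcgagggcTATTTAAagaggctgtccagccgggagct

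The Fabp3 window holds 1 TATTTAA match, 29 to 23 bases before the start site, on the gene's strand. Of 32851 such windows of all genes in the same table, 4.18% hold that motif. No other motif searched is present in this window. The half-site AGGTCA is held by 14.0% of all windows and its direct repeat by 0.0335%. The window is rich in G and C, at 64.8%, against a median of 52.4% over all windows.

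Fabp3 gave the 4th largest rise on the log2 scale among the 27022 probe sets tested, with intensities under 16 set to 16. That floor limits the rise of probe sets lying under it in control cells, so the rank depends on it. The intensity of probe set 1416023_at was 105.4, 119.0 and 91.9 on the control arrays and 2372, 2503 and 2248 with rosiglitazone. All treated arrays lay far above all control arrays, and the gap between the groups was 2129 intensity units. Its log2 change was 4.50 (SE 0.077, 95% CI 4.34 to 4.66, adjusted p = 1.6e-15), a fold of 22.6 (95% CI 20.2 to 25.3). The control arrays varied more in proportion than the treated ones, with coefficients of variation of 12.8% and 5.37%.

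The other Fabp3 probe set, 1444844_at, read 35.6, 24.3 and 21.3 in control cells and 29.2, 39.8 and 29.5 with rosiglitazone. Its groups overlapped and it was close to the lowest mean intensity kept for testing, 27.4. Its log2 change was 0.30 (SE 0.24, 95% CI −0.22 to 0.82, adjusted p = 0.334). The difference between the changes of the 2 probe sets, tested within arrays, was −4.20 (SE 0.20, adjusted p = 9.0e-07). Averaging both sets gave Fabp3 a log2 change of 2.40, so its size depends on which probe set represents the gene. The reference gene table lists a Fabp3 pseudogene, Fabp3-ps1, and whether either probe set also reads it was not tested.

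**Figure D1:**
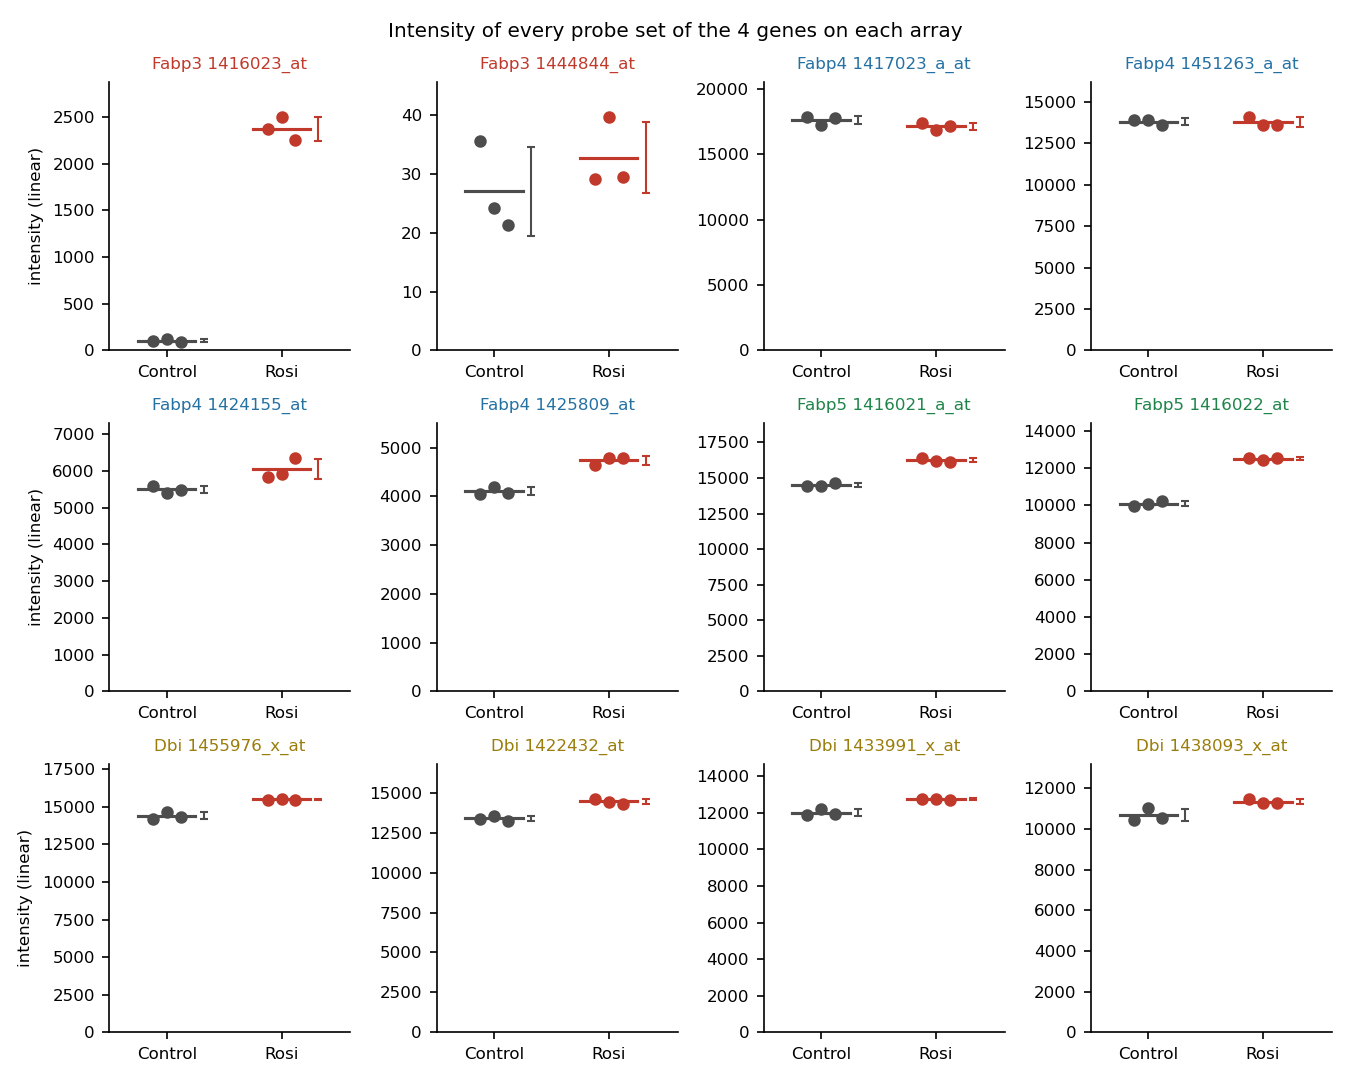
Intensity on a linear scale (y axis, from 0, one scale per panel) of the 12 probe sets on each array, with 3 control arrays in grey and 3 rosiglitazone arrays in red; the horizontal line is the group mean and the bar beside it 1 SD. Fabp3 1416023_at goes from a mean of 105.5 to 2374, while the Fabp4, Fabp5 and Dbi sets start from control means between 4103 and 17647 and move by at most 23.9%.

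Most genes that mark muscle were dim in both groups. The list held 14 genes of skeletal and heart muscle, and 4 of them were bright enough to test: the intermediate filament gene Des was called higher by 0.21 (adjusted p = 0.0498), the troponin gene Tnnc2 was called lower and Ckm and Acta1 did not pass the test. No listed muscle gene was called higher without control replicate 1 or 2 or rosiglitazone replicate 2, and 2 were under both other scalings. Tnnc2 was dim, at 39.4 ± 11.1 in control cells and 17.3 ± 4.03 with rosiglitazone, where 2 of 3 arrays lay at or under the floor of 16, and it was not tested with the dimmest 60% left out. The summed intensity of the 14 lay between 589 and 617 on control arrays and between 575 and 649 on treated ones, so the groups overlapped. Intensities of the muscle-determining factor gene Myod1 ranged from 2.30 to 15.6, those of the heart myosin gene Myh6 from 1.00 to 9.20 and those of the myoglobin gene Mb from 10.01 to 26.2. Brown and beige fat markers moved in the direction of Fabp3: all 9 listed were called higher, where 23.0% of the brightest probe sets of 12952 genes were, with a median log2 change of 1.18. This list was drawn up knowing that these genes had risen in the same arrays. Fold changes for Ucp1 and Otop1 have no measured control level, because all control arrays lay under the intensity floor of 16. Both passed the filter through their treated arrays. Dio2 rose by 0.27, with a gap of 2.65 intensity units between the groups. Its limma adjusted p of 0.0389 did not pass the stricter threshold of 0.01.

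The profiles nearest to that of Fabp3 over the 6 arrays belonged to 3 other genes with steep rises. Being picked for likeness to a steep rise, these genes had to rise steeply. Likeness was the root mean square difference of log2 intensities after centring each gene on its own mean. Sgk2, a protein kinase gene, was nearest at 0.22, with a log2 change of 4.68. Acaa1b, which encodes a peroxisomal thiolase of fatty acid breakdown, followed at 0.31 with a change of 3.93. Otop1, a proton channel gene, lay at 0.37, a distance that rests on the floor of 16, which replaced all its control values. The control means of Sgk2 and Otop1, 21.9 and 6.58, lay under the lowest mean kept for testing, 27.4. Both genes passed the filter through their treated arrays.

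Fabp4 was close to the highest values on the arrays. The brightest probe set, 1417023_a_at, read 17895, 17278 and 17768 on control arrays and 17393, 16903 and 17148 on treated arrays, and it was the highest of all values on 4 of the 6 arrays. The groups overlapped, with 2 of the 3 control arrays above every treated one. Its log2 change was −0.041 (SE 0.022, 95% CI −0.088 to 0.0051, adjusted p = 0.128), and without rosiglitazone replicate 1 it was called lower at −0.052 (adjusted p = 0.0304 in limma). The second set, 1451263_a_at, read 13942, 13925 and 13598 in control cells against 14121, 13613 and 13617 with the drug. Its groups overlapped and its log2 change was −0.0041 (95% CI −0.053 to 0.045, adjusted p = 0.899).

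The 2 dimmer Fabp4 sets rose. Probe set 1424155_at read 5606, 5400 and 5488 in control cells and 5849, 5929 and 6366 with rosiglitazone, a log2 change of 0.14 (SE 0.032, adjusted p = 0.0021). Probe set 1425809_at read 4051, 4196 and 4060 in control cells and 4635, 4794 and 4794 with rosiglitazone, a change of 0.21 (SE 0.028, adjusted p = 1.3e-05). In both sets every treated array lay above every control array. The call of 1424155_at was lost in limma without a variance trend and without the filter on low values (adjusted p = 0.0672 and 0.0683). The change of 1425809_at exceeded that of the brightest set by 0.25 (SE 0.033, adjusted p = 6.1e-04) and the change of 1424155_at by 0.18 (SE 0.032, adjusted p = 0.0037), tested as within-array differences over 10214 pairs of probe sets of one gene, of which 19.6% were called in either direction. The second brightest set differed from the brightest by 0.037 (95% CI −0.010 to 0.085, adjusted p = 0.266). After quantile normalization the difference for 1424155_at was 0.060 and not called (adjusted p = 0.128), and that for 1425809_at was 0.15 and still called. The former was not called without a variance trend either (adjusted p = 0.102).

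Fabp5 rose on both its probe sets. The brighter, 1416021_a_at, read 14442, 14441 and 14648 on control arrays and 16431, 16196 and 16148 on treated ones, with a gap of 1500 units between the groups. Its log2 change was 0.16 (SE 0.020, 95% CI 0.12 to 0.21, adjusted p = 5.5e-06). The dimmer, 1416022_at, read 9971, 10063 and 10261 in control cells and 12571, 12431 and 12532 with rosiglitazone, a change of 0.31 (SE 0.022, 95% CI 0.26 to 0.36, adjusted p = 9.2e-09). Neither set had overlapping groups, and the dimmer set changed more than the brighter by 0.15 (SE 0.017, adjusted p = 3.5e-04), a difference that was not called without a variance trend (adjusted p = 0.107). Both calls held under all the alternatives tried, including both other scalings of the arrays, with log2 changes of 0.16 to 0.29 for the brighter and 0.27 to 0.43 for the dimmer set.

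Macrophages also make Fabp4 and Fabp5, and their markers fell on the same arrays. Of 12 macrophage markers tested among 14 listed, 11 were called lower and 0 higher, where 35.3% of genes tested were called lower, with a median log2 change of −1.37. The summed intensity of the 14 was 13382 to 14585 on control arrays and 4709 to 5202 on treated ones. Csf1r, the receptor gene that macrophages depend on, went from 993 ± 60.2 to 356 ± 15.1 (mean ± SD, n = 3 each), and Adgre1, which encodes F4/80, from 733 ± 53.7 to 309 ± 21.9. The macrophage genes Cd163 and Itgam were too dim to test, between 6.72 and 33.1. The part of macrophage RNA in the values of Fabp4 and Fabp5 was not tested. In such bulk samples fewer cells of a type and less RNA per cell cannot be told apart. Of 9 fat cell markers tested 1 was called higher and 6 lower (3 and 6 after median centring), where 23.0% of genes tested were called higher and 35.3% lower. Their median log2 change was −0.25 (−0.12 after median centring). After that centring 32.2% of all probe sets tested were called higher and 21.1% lower, with a median of 0.082. The adiponectin gene Adipoq, at 12829 ± 147 and 13158 ± 238, and the lipoprotein lipase gene Lpl, at 14814 ± 235 and 14606 ± 55.8, were the 2 not called. The hormone gene Retn, for resistin, fell by 0.87, and the leptin gene Lep went from 665 ± 41.3 to 19.1 ± 7.52.

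Dbi rose slightly and evenly. Its brightest probe set, 1455976_x_at, read 14223, 14673 and 14355 on control arrays and 15488, 15553 and 15458 on treated arrays, a log2 change of 0.10 (SE 0.021, 95% CI 0.060 to 0.15, adjusted p = 6.0e-04). The set 1422432_at, the single one of the 4 whose name carries no suffix for probes that also match other sequences, read 13369, 13564 and 13236 against 14626, 14419 and 14315. Its change was 0.11 (SE 0.021, adjusted p = 4.3e-04). The sets 1433991_x_at and 1438093_x_at had changes of 0.085 and 0.088 (adjusted p = 0.0038 and 0.0075). None of the 4 sets had overlapping groups. The smallest gap was 241 units, for 1438093_x_at, whose call was lost without control replicate 1 (log2 change 0.074, limma adjusted p = 0.0501) and after quantile normalization (0.029).

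The 3 dimmer Dbi sets were each compared with the brightest, and none of the differences was called. Against the brightest set the other 3 differed in change by 0.0056, −0.020 and −0.017, with adjusted p-values of 0.861, 0.449 and 0.596 and 95% intervals that together ran from −0.059 to 0.045. After quantile normalization 2 of these differences were called, at −0.092 for 1433991_x_at and −0.11 for 1438093_x_at. All 4 Dbi calls were lost when limma was run without a variance trend (adjusted p = 0.0584 to 0.138).

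**Figure D2:**
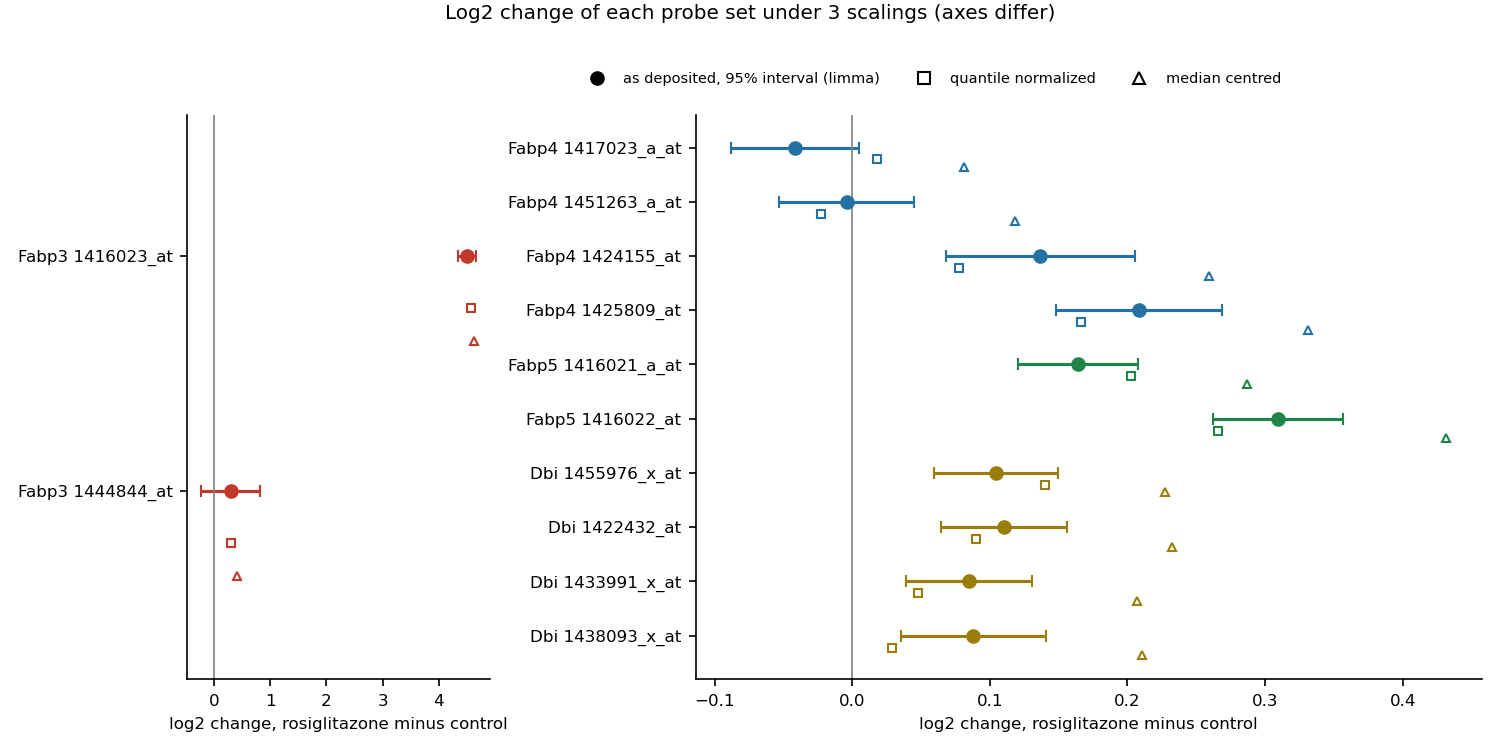
Log2 change, rosiglitazone minus control (x axis, a separate scale for each panel), of each probe set (y axis); filled circles with bars are the values as deposited with limma's 95% interval, open squares are after quantile normalization and open triangles after median centring. The brightest Fabp4 set lies at −0.041 as deposited and at 0.018 and 0.081 under the other scalings, while both Fabp5 sets stay between 0.16 and 0.43 under all 3.

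Small changes depended on how the arrays were scaled. Centring each array on the median log2 value of its tested probe sets moved their median log2 change from −0.040 to 0.082, a shift of 0.12. Quantile normalization moved that median change by 0.068. Under median centring 11 of the 12 member probe sets were called higher, both bright Fabp4 sets included, at 0.081 and 0.12, against 32.2% of all probe sets under that scaling. Under quantile normalization 8 were, against 27.4% of all. The rises of Fabp3 1416023_at, both Fabp5 sets and the 2 dimmer Fabp4 sets were called under all 3 scalings, and those of 3 of the 4 Dbi sets likewise.

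Most of these probe sets were among the brightest on the array. Of the 12 probe sets 8 had a mean over 8000: 2 of Fabp4, both of Fabp5 and all of Dbi. Among the 327 probe sets tested with a mean over 8000, 68.2% were called and 44.3% were called higher. The median size of their log2 changes was 0.12, against 0.24 over all probe sets tested, and their largest rise was 0.81. A larger rise than that of Fabp5 1416022_at was seen in 39 of the 327. Within Fabp4 and within Fabp5 the dimmer sets had the larger changes, and within Dbi the 2 dimmest sets had the smallest. How far the highest intensities are limited by the array's range was not tested.

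**Figure D3:**
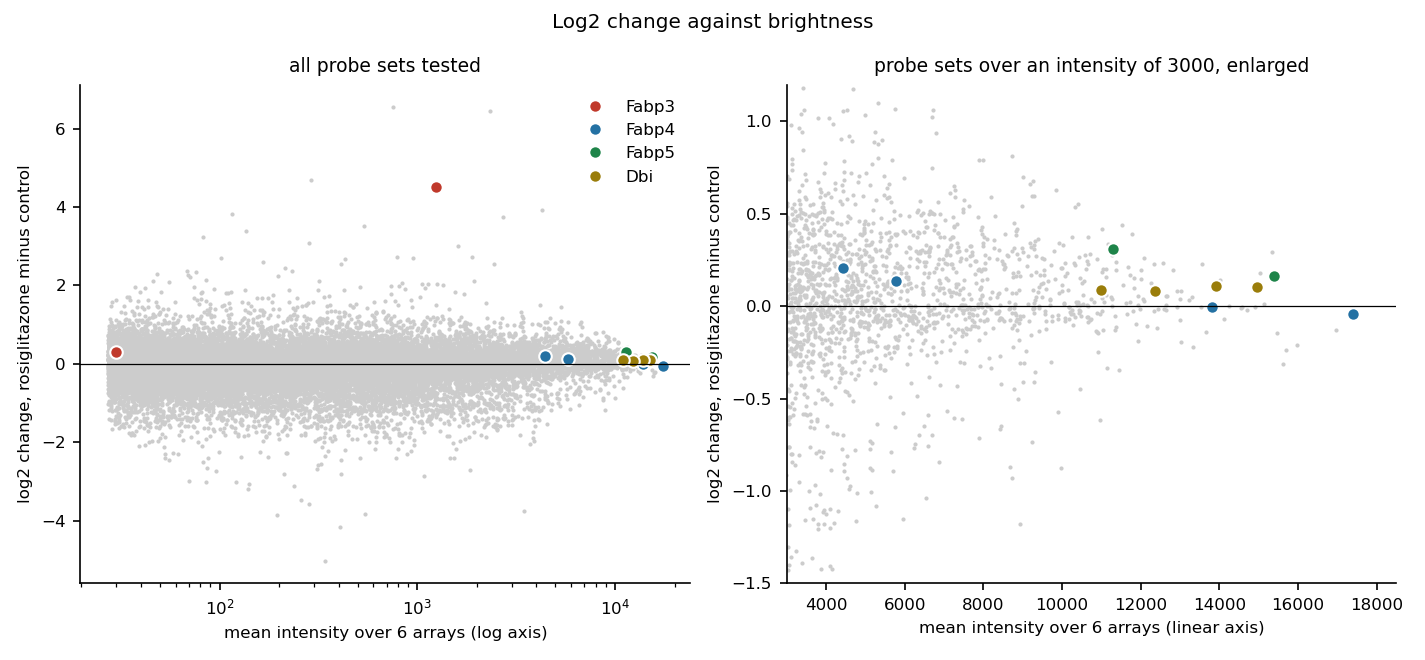
Log2 change (y axis) against the mean intensity over 6 arrays (x axis, logarithmic on the left and linear on the right) for the 27022 probe sets tested, in grey, with the probe sets of Fabp3, Fabp4, Fabp5 and Dbi in colour; the right panel enlarges the bright end on a shorter y axis that leaves out a few points. Fabp3 1416023_at stands at 4.50, and the 8 bright sets of the other genes lie between −0.041 and 0.31, where the grey points also narrow.

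The profiles nearest to the brightest sets of Fabp4, Fabp5 and Dbi were very near, but many genes were. For Fabp5 they were the respiratory complex III subunit genes Uqcrc2 and Uqcrb, with log2 changes of 0.15 and 0.18, and Abhd5, which encodes the coactivator of fat cell triglyceride lipase (0.17). For Dbi they were Pcmtd1, Khdc4 and the chaperone gene Dnaja2, with changes of 0.095 to 0.11. For Fabp4 they were the proteasome activator gene Psme1, Rps4l and the ubiquitin protease gene Usp25, with changes of −0.051 to −0.041, none of them called. The distances of these 9 ran from 0.0074 to 0.014, and 623 genes lay within 0.05 of Fabp5, 708 of Dbi and 705 of Fabp4, while 0 lay that near Fabp3.

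Close relatives of the fatty acid binding proteins were mostly dim. The family list held 13 other intracellular lipid-binding proteins, of which 11 had a named probe set and 2 passed the filter. Rbp7, which encodes a cellular retinol binding protein, rose from 23.8 ± 8.25 to 248 ± 16.1, a log2 change of 3.40 (adjusted p = 3.7e-10), and passed the filter through its treated arrays. Fabp12 read 60.3 ± 0.957 in control cells and 76.5 ± 10.2 with rosiglitazone (log2 change 0.33, adjusted p = 0.0452). That call was lost under 11 of 19 alternatives, among them leaving out any of the 3 control arrays or rosiglitazone replicate 1 or 3. The other 9, Fabp1, Fabp2, Fabp6, Fabp7, Fabp9, Pmp2, Rbp2, Crabp1 and Crabp2, lay between 1.00 and 43.5 on all arrays.

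The genes next to Fabp4 and Fabp5 on the chromosome did not share their brightness. In the RefSeq order of protein-coding genes (GRCm38.p6, used here for order only) Fabp5 is followed by Pmp2, Fabp9, Fabp4, Fabp12 and Impa1, so the family forms a cluster with other genes at its edges. Pmp2, a myelin protein gene, read at most 5.63 and Fabp9, a testis form, at most 21.9. Impa1, which encodes inositol monophosphatase, had a log2 change of 0.037 (adjusted p = 0.452). Beyond Fabp5 the adaptor gene Pag1 rose by 0.28 and Zfp704 fell by 0.53. Over the up to 3 genes on each side of the 4 members, 20 distinct genes, 13 were tested, of which 3 were called higher and 3 lower, and 58.3% of all genes tested were called. Of the genes directly beside Fabp3, Serinc2 was too dim to test and Zcchc17 had a log2 change of 0.11 that was not called (adjusted p = 0.058), and the 2 genes directly beside Dbi, Tmem37 and 3110009E18Rik, were not called. Farther out, within 3 genes, the ATPase-interacting gene Nkain1 rose by 1.12 and the matrix protein gene Tinagl1 fell by 0.81 near Fabp3, and the metalloreductase gene Steap3 fell by 0.62 near Dbi.

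Some other carriers of acyl-CoA were also called higher. Of 8 genes tested in the list of acyl-CoA-binding domain proteins and other carriers, 5 were called higher and 1 lower (6 and 0 after median centring, 4 and 1 after quantile normalization), where 23.0% of genes tested were called higher and 35.3% lower. The median log2 change was 0.10, against −0.051 over the genes tested. It was 0.23 after median centring and 0.17 after quantile normalization, where the median of all probe sets tested was 0.082 and 0.027. Of all probe sets tested 32.2% were called higher and 21.1% lower after median centring, and 27.4% and 24.9% after quantile normalization. Eci2, an enoyl-CoA isomerase that carries an acyl-CoA-binding domain, rose by 0.91, from 3043 ± 14.1 to 5705 ± 179. Acbd4 rose by 0.53 on probe set 1449626_s_at, from 1255 ± 46.1 to 1811 ± 23.6. Its change ran from 0.21 to 0.65 over 20 alternatives, averaging the gene's probe sets among them, and its call was kept under all. Leaving out 1 array at a time gave 0.50 to 0.55. Acbd6 (0.12) and Acbd5 (0.11), the latter a peroxisomal tether, were called as deposited, but their calls were lost under 9 and 5 of 20 alternatives. For Acbd6 these included leaving out control replicate 2 or 3 or rosiglitazone replicate 2 or 3, and for Acbd5 control replicate 1 or rosiglitazone replicate 2. Tspo, which encodes the mitochondrial protein that Dbi peptides bind, fell by 0.10 as deposited but stood at 0.020 and was not called after median centring.

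Genes that release fatty acids from stored fat were called in both directions. Of 7 tested, 3 were called higher and 2 lower (5 and 2 after median centring, 3 and 3 after quantile normalization), with a median log2 change of −0.010 (0.11 after median centring). Over all genes tested 58.3% were called, 23.0% higher and 35.3% lower, so this count lies near the background. After median centring 32.2% of all probe sets tested were called higher and 21.1% lower, with a median of 0.082. Mgll, the monoglyceride lipase gene, rose by 0.36 and G0s2, an inhibitor of fat cell triglyceride lipase, by 0.24, while Pnpla3 fell by 0.77. Lipe, which encodes the hormone-sensitive lipase that binds Fabp4, fell by 0.23. Among 10 genes of uptake and activation 4 were called higher and 6 lower (4 and 5 after median centring), with a median of −0.22 (−0.096 after median centring). The fatty acid transport protein gene Slc27a4 rose by 0.72 and Got2 by 0.51, the scavenger receptor gene Cd36 rose by 0.19, and the medium-chain and acetate synthetase genes Acsm3 and Acss2 fell by 1.61 and 1.06.

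Most genes that take acyl-CoA into mitochondria and begin its oxidation rose. Of 10 tested, 9 were called higher and 1 lower, under all 3 scalings, with a median log2 change of 0.37 as deposited. Over all genes tested 23.0% were called higher and 35.3% lower as deposited. This list was chosen with earlier results of these data known. Hadha, a subunit of the trifunctional protein, rose by 1.06, the carnitine carrier gene Slc25a20 by 0.90 and the very-long-chain dehydrogenase gene Acadvl by 0.63, while Cpt1c, the brain form of the carnitine transferase, fell by 0.77. Among the PPAR and RXR receptors, 3 of 6 were called higher and 3 lower under each scaling. Ppara, the receptor of oxidative tissues, rose by 1.83, from 681 ± 30.7 to 2419 ± 54.8, and Rxrg rose by 0.91. Ppard, to which Fabp5 is known to deliver ligand, fell by 0.91, Rxra fell by 0.80 and Pparg, the receptor of the drug, fell by 0.36.

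**Figure D4:**
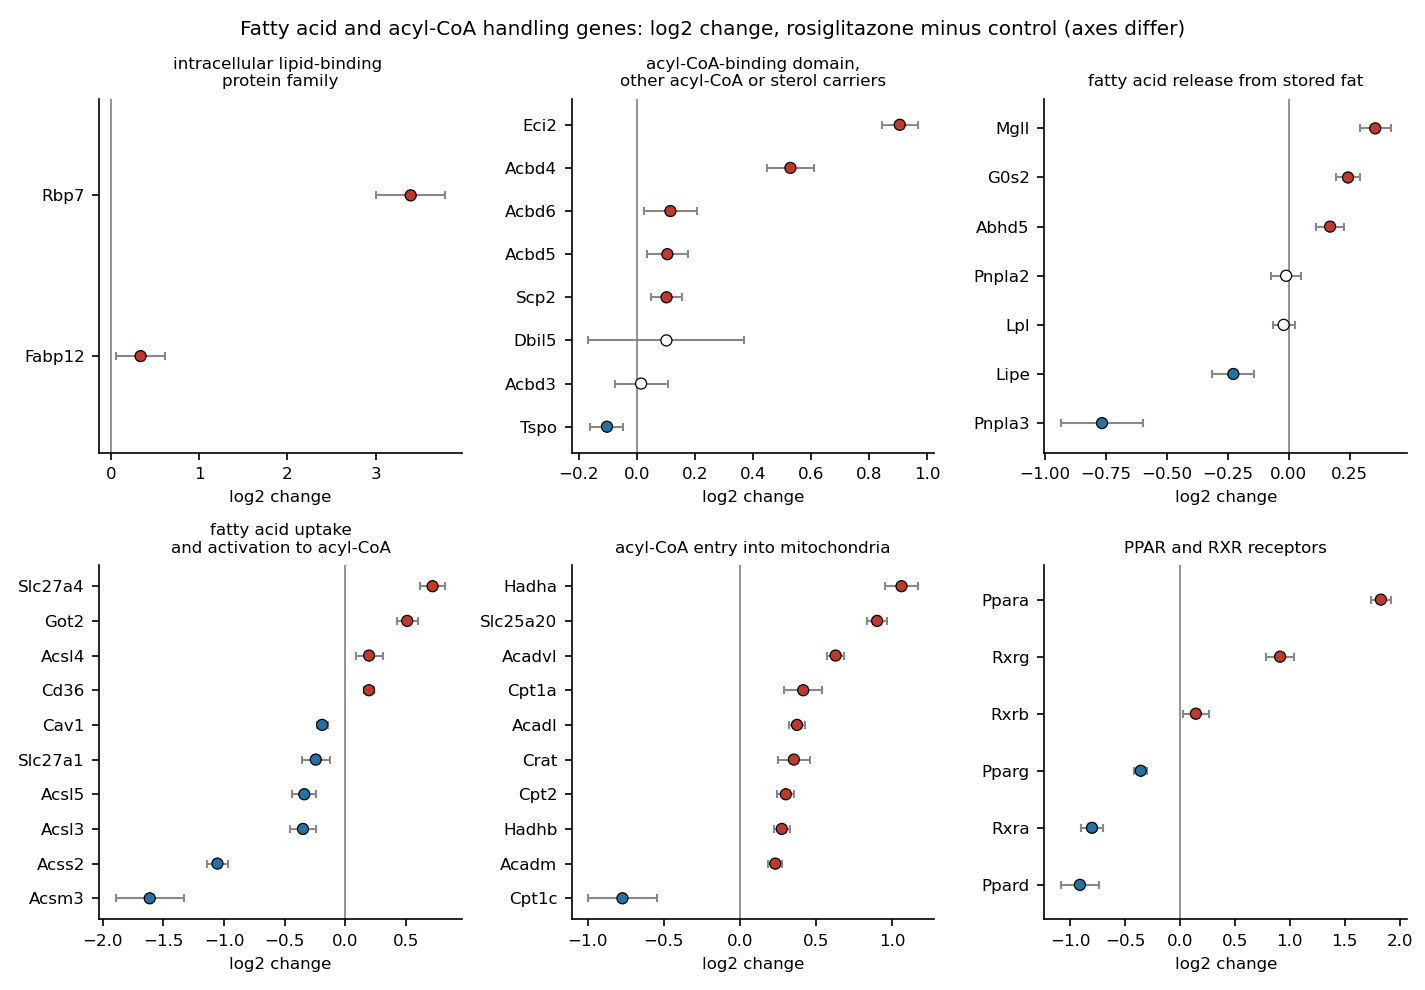
Log2 change, rosiglitazone minus control (x axis, a separate scale for each panel), with limma's 95% interval for the tested genes (y axis) of 6 lists around the binding proteins; red points were called higher, blue lower and white not called at an adjusted p under 0.05. In the mitochondrial list 9 of 10 genes lie above 0, and in the receptor list 3 lie above and 3 below.

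Markers of other cell types gave the following counts. They are read against the 23.0% of genes tested called higher and the 35.3% called lower. Of 7 preadipocyte and stromal markers tested 0 were called higher and 6 lower (median −1.17), under all 3 scalings. Among 5 endothelial markers tested 1 was called higher and 3 lower (2 and 3 under both other scalings, and 0 higher without control replicate 2 or rosiglitazone replicate 2 or 3), while Pecam1 and Cdh5, which define that cell type, were too dim to test, at 2.97 to 27.9. The epithelial list had 3 tested genes with 1 called higher, Krt10 (0.43), and the keratinocyte gene Krt5 read 13.2 to 33.1. In the Schwann cell list Mbp rose by 1.21 and S100b by 1.70 and Sox10 fell by 0.51 among 4 tested. The only lower call of that list was lost without the filter, with the dimmest 60% left out and with a floor of 64. Of 3 lymphocyte markers tested Ptprc fell by 1.17, and Cd8a and Cd79b, with log2 changes of 0.0057 and 0.50, did not pass the test. The listed lymphocyte genes Cd3e, Cd3d and Cd79a were too dim to test, at 1.00 to 29.4. The part of these cell types in the values of the binding proteins was not tested.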

How the data were processed

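The authors deposited linear intensity values for 45101 probe sets on 6 Affymetrix mouse arrays, with RNA prepared by TRIzol and columns and labelled as biotinylated cRNA per the labels' protocols. The sources used here name no software for background, summarization or scaling. Array medians were 44.46 to 45.56 in the treated and 45.65 to 46.66 in the control group. The number of arrays limits the precision.

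Probe sets were named through the platform annotation: 34945 had 1 symbol, 932 several and 9160 none. Intensities under 16 were set to 16 before log2. Controls (64) and the dimmest 40% of the rest, ranked by mean, were dropped. Every remaining probe set, 27022, was fitted at once in limma 3.58.1 under R 4.3.3 (lmFit, then eBayes with trend = TRUE, without covariates, two-sided), with Benjamini-Hochberg adjustment and a threshold of 0.05. Within-gene differences between probe sets were fitted likewise, but with the variance trend on the mean log2 level of both probe sets. Listed genes were represented by their brightest probe set and described without a list test. An exact permutation test of 3 against 3 cannot go below 0.1. The fit was tested on simulated data.

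The members and lists were chosen with earlier results of these data known. The text names all member probe sets, the 3 nearest profiles of each member and some of its neighbours in gene order. Of each list around the binding proteins it names up to 4 called genes with the largest change (all where 3 or fewer were tested). Genes named from the cell type marker lists did not follow this rule. Genes outside this rule were named after their values were seen. Alternatives covered the filter (none, 20% or 60% left out), scaling (median centring, quantile), the floor (64, or log2(value + 1) instead), the variance model (no trend, robust, weights per array), a block on replicate number, a stricter threshold (0.01), gene-level values, and leaving out each array.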

Additional observations from a re-analysis of the deposited data

How the results depend on the processing

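Over all probe sets 5721 were called higher and 8294 lower. The excess of lower calls turned round under both other scalings, with 8709 higher and 5697 lower after median centring and 7395 and 6731 after quantile normalization. Using only the brightest set of each gene gave 3057 higher and 4635 lower, and averaging the sets of each gene 2912 and 4279, since fewer features were then tested. Without a variance trend 4 of the 12 member probe sets were called higher instead of 9 and 2 within-gene differences instead of 4. The calls lost were Fabp4 1424155_at at 0.14 and the 4 Dbi sets, 1455976_x_at, 1422432_at, 1433991_x_at and 1438093_x_at, at 0.10, 0.11, 0.085 and 0.088, and the cause was not tested. Without a filter on low values Fabp4 1424155_at (0.14, adjusted p = 0.0683) and Dbi 1438093_x_at (0.088, adjusted p = 0.0776) were not called, and after quantile normalization the latter was at 0.029. Fabp4 1417023_a_at, −0.041 as deposited, was 0.018 after quantile normalization, 0.081 and called after median centring and 0.075 and called as the mean of the gene's sets. Fabp4 1451263_a_at was 0.12 and called after median centring. Of the differences between probe sets, Dbi 1422432_at against its brightest set turned to −0.050 and Fabp4 1451263_a_at to −0.040 after quantile normalization, both uncalled, and Tspo turned to 0.020 after median centring.

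Leaving out 1 array at a time gave −0.057 to −0.031 for Fabp4 1417023_a_at, −0.022 to 0.0048 for Fabp4 1451263_a_at, 0.074 to 0.11 for Dbi 1438093_x_at and −0.0035 to 0.014 for the difference between Dbi 1422432_at and its brightest set. The member sets called lower numbered 0 to 1. The replicate number did not pair the arrays: deviations of same-numbered arrays correlated at −0.041, −0.020 and 0.023, and 1 of 6 arrays correlated best with its own number. With the replicate number as a block 5589 probe sets were called higher and 8188 lower, with 9 member sets higher and 0 lower. Of 600 list counts under 20 alternatives, 55 moved by more than 1.5 times. Of 25 other genes followed under the alternatives, 21 kept their call and direction throughout.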
